A study of Mus musculus with 24 samples.

Results

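The CCN family is a group of secreted matricellular proteins, which sit in the extracellular matrix and modulate how cells respond to it rather than building it. Its 6 genes were taken by name from the 55291 genes counted in each library: Ccn1 (Cyr61), Ccn2 (Ctgf), Ccn3 (Nov), Ccn4 (Wisp1), Ccn5 (Wisp2) and Ccn6 (Wisp3). All 6 were found, and 5 passed the filter on low counts and were tested. Ccn6 did not pass.

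Pulmonary fibroblasts were grown from C57BL/6 wild type (WT) mice and from mice labelled TLR4-/-, for toll-like receptor 4, on the same background. The allele is not given in the sources used here. The mice were 4 to 8 weeks old, and the cells of each group came from a pool of 3 to 4 lungs and were used at passages 3 to 6. After a night in Opti-MEM, a low-serum medium, each genotype was given 1 of 4 treatments. These were PBS, the saline control; rmCIRP, recombinant cold-inducible RNA-binding protein of the mouse, at 1 μg/ml, a protein that can activate TLR4 once released from cells; rmTGF-β1, recombinant mouse transforming growth factor β1, at 2 ng/ml, the main driver of matrix production in fibroblasts; and both factors. Total RNA was sequenced after 24 h, in 3 libraries for each of the 8 conditions. The labels do not say that the 3 libraries came from separate cultures, so p-values measure only the spread between these libraries, which may be technical. Nor do they say that a genotype was drawn from more than 1 pool. Differences between genotypes therefore cannot be told apart from differences between pools of cells.

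CCN proteins bind integrins, heparan sulfate proteoglycans and growth factors, and through them affect adhesion, migration, proliferation and matrix deposition. Ccn1 and Ccn2 are immediate early genes and classical targets of the Hippo pathway coactivators YAP and TAZ, of SRF and its cofactors MRTF, and of TGF-β and SMAD signaling. Ccn2 is a widely used marker of fibroblast activation in lung fibrosis. Ccn4 and Ccn5 were described as WNT1-inducible genes, and Ccn4 is known as a profibrotic factor of the lung. Ccn5 lacks the C-terminal cystine knot domain of the other members, and it and Ccn3 are often described as opposing Ccn2.

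Of the 6 members, 2 had a promoter in the RefSeq table used here (GRCm38.p6, 250 bases before the start site and 50 after it): Ccn1, among the genes with the highest counts in these cells, and Ccn6, which was almost without reads. They are printed for that contrast, with capitals marking matches on either strand to 5 motifs: CATTCC (bound by TEAD factors, the partners of YAP and TAZ), CAGAC (a SMAD binding element), TGACG (a cyclic AMP response element core), TGANTCA (AP-1) and TATAAA (the TATA box). The Ccn1 promoter lies at chr3:145649936-145650235 and that of Ccn6 at chr10:39163745-39164044, both on the minus strand.
Ccn1: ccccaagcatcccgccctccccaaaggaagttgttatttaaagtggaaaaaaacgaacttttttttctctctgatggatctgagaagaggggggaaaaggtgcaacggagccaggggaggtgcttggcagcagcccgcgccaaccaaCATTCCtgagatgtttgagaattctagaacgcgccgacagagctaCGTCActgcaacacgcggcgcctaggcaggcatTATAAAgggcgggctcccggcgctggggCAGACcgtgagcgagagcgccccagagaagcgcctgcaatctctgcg
Ccn6: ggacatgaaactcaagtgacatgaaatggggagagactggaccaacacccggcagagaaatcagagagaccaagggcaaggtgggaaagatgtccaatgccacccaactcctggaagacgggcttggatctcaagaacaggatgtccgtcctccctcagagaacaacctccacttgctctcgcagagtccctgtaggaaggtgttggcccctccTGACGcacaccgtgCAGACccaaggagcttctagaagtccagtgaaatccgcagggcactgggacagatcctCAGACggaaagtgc
The Ccn1 window held CATTCC at bases 148 to 153 from its 5′ end, CGTCA (the reverse complement of TGACG) at bases 193 to 197, TATAAA at bases 226 to 231 and CAGAC at bases 254 to 258. The Ccn6 window held TGACG once, at bases 215 to 219, and CAGAC at bases 229 to 233 and 287 to 291. Neither CATTCC nor TATAAA was found in it, and TGANTCA was found in neither window. Among all 32851 promoter windows of the table, 14.7% held CATTCC on either strand, 49.6% CAGAC, 20.8% TGACG, 7.81% TGANTCA and 13.6% TATAAA. These matches describe the letters only.

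Libraries held between 29853346 and 39664606 reads assigned to genes. Levels below are normalized counts, the reads of a gene divided by the library's size factor. The Tlr4 transcript, the targeted gene, was counted at 630 to 802 in WT libraries and at 702 to 941 in those labelled TLR4-/-. It was not lower in the latter. A count per gene cannot show whether the transcript is intact, so it does not test the label. The label is kept as a name for these libraries. All 8 fibroblast markers were present in each condition. The sum of 12 macrophage markers was 75649 to 93659 in WT libraries and 303354 to 387183 in those labelled TLR4-/-, and all 12 were higher in the latter with PBS, by a median of 2.08 on the log2 scale. The 5 epithelial markers summed to between 14 and 63 in WT libraries and between 156 and 225 in those labelled TLR4-/-, and 3 of them stayed under a mean of 10 in each condition. With PBS, the 5 smooth muscle and pericyte markers summed to 83234 to 88953 in WT libraries and to 55319 to 58342 in those labelled TLR4-/-. The 4 endothelial markers summed to between 482 and 850 in WT libraries, and the 4 mesothelial markers to between 285 and 689 in all. With PBS the mesothelial sums were 458 to 506 in WT libraries and 562 to 689 in those labelled TLR4-/-. One library stood apart from its replicates, the third labelled TLR4-/- with both factors. Its median absolute log2 deviation from the mean of the other libraries of its condition was 0.166, against at most 0.126 elsewhere. That 0.126 belongs to the first library of the same condition, for which the mean includes the third. The third also had the lowest sum of fibroblast markers, 391672, and the highest of macrophage markers, 387183. Its endothelial markers summed to 737, against 246 to 390 in the other libraries labelled TLR4-/-, and its 5 smooth muscle and pericyte markers to 33732, against at least 49087. Results that rest on it are given with and without it. In such bulk samples, fewer cells of a type and less RNA per cell cannot be told apart.

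Ccn1 and Ccn2 were among the most abundant transcripts of these cells. With PBS in WT cells, Ccn2 ranked 27 and Ccn1 ranked 84 by normalized count among 55291 genes, while Ccn4 ranked 310, Ccn5 657 and Ccn3 8281. On the scale of normalized counts per kilobase of exon, on which genes can be compared, the order of levels in WT cells with PBS was Ccn2 (29100 ± 851), Ccn1 (19770 ± 308), Ccn5 (4374 ± 323), Ccn4 (2614 ± 153) and Ccn3 (154.9 ± 39, SD, n = 3). No neighbours in that order overlapped. The family as a whole took 0.31% to 0.535% of the counted reads of a library, and within WT cells its share was lowest with rmCIRP (0.31% to 0.354%) and highest with rmTGF-β1 (0.526% to 0.535%).

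**Figure D1:**
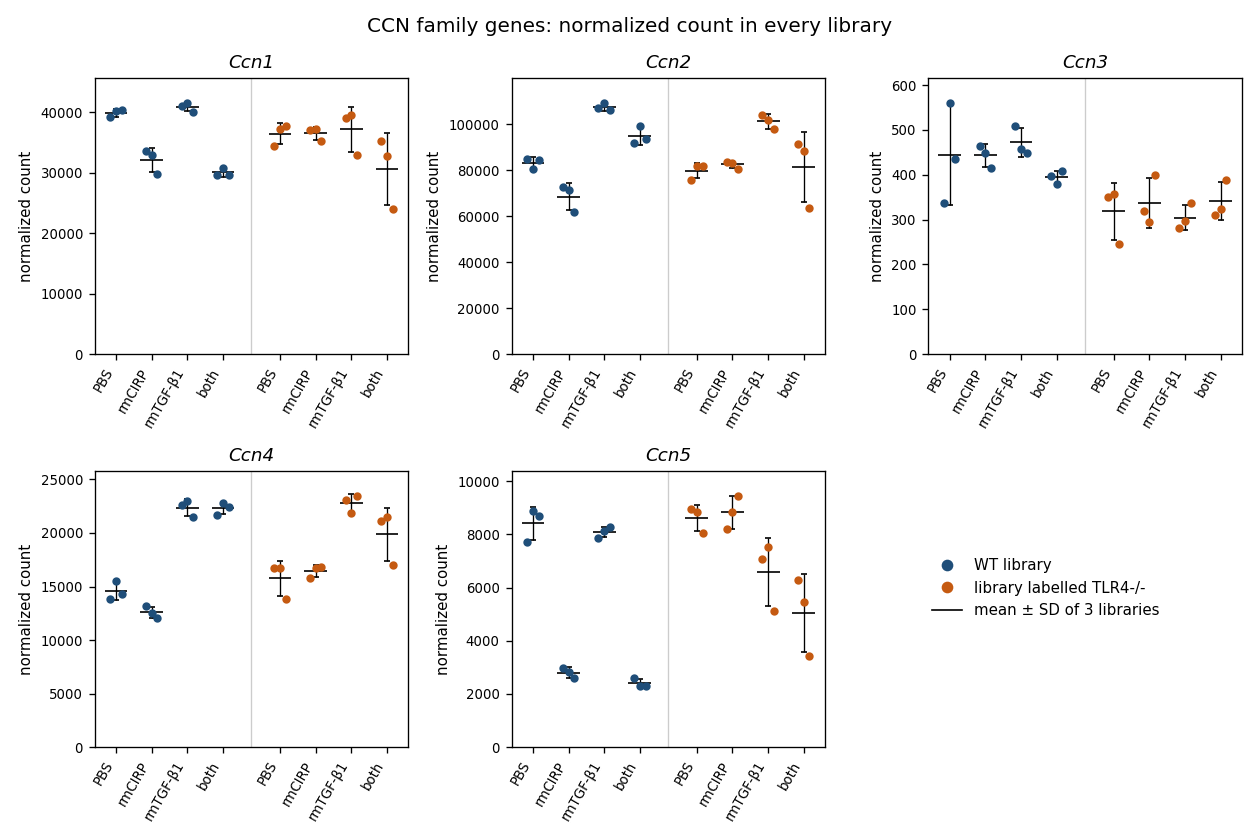
Normalized count (y axis, linear from 0, own scale for each gene) of 5 CCN genes in the 24 libraries by treatment (x axis), WT on the left and labelled TLR4-/- on the right of each panel. Points are libraries, and bars are the mean ± SD of 3. Ccn5 in WT cells lay between 2290 and 2986 in all 6 libraries with rmCIRP and between 7708 and 8869 in all 6 without it.

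The first question was how TGF-β1, the factor most closely tied to Ccn2 and Ccn4 in fibroblasts, moved the family. In WT cells 2 of the 5 members tested rose, Ccn2 and Ccn4, and none fell, at the threshold used throughout, an adjusted p under 0.1 ("called"). Of all 16258 genes tested in this comparison, 12.4% changed, 5.77% upward and 6.65% downward. Ccn2, which promotes matrix production, had 84694, 80435 and 84608 normalized counts with PBS and 107002, 109033 and 105954 with rmTGF-β1. All libraries with rmTGF-β1 were above all with PBS. The rise was 0.36 on the log2 scale (SE 0.09), or 1.29-fold, with an adjusted p of 0.00917. All adjusted p-values come from the quasi-likelihood test of edgeR, adjusted over all genes by the Benjamini-Hochberg method unless another tool is named. Ccn4, a growth-promoting member, had 13880, 15506 and 14258 normalized counts with PBS and 22665, 22972 and 21508 with rmTGF-β1. Again the groups did not overlap, and the rise was larger, 0.62 (SE 0.07) or 1.53-fold, with an adjusted p of 1.19e-05.

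The other members did not pass the test with rmTGF-β1 in WT cells. Ccn1, an adhesion ligand of integrins, was counted at 39196, 40198 and 40333 with PBS and at 40977, 41448 and 40070 with rmTGF-β1. The groups overlapped, and the log2 difference was 0.03 with a 95% interval of -0.158 to 0.215. That interval bounds the change of Ccn1 below the estimate for Ccn2. Ccn5 differed by -0.06 (95% interval -0.360 to 0.234) and Ccn3 by 0.08 (-0.214 to 0.381). Within each library, Ccn2 moved away from Ccn1, from 2.09 times its count with PBS to 2.63 times with rmTGF-β1. The ranges of this ratio were 2 to 2.16 and 2.61 to 2.64 and did not overlap, and the exact permutation test over libraries gave p = 0.1, two-sided, the smallest that 3 against 3 allows.

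The same pair rose in libraries labelled TLR4-/-. Ccn2 had 75848, 81795 and 81786 normalized counts there with PBS and 104191, 101849 and 97728 with rmTGF-β1. Every library with rmTGF-β1 was above those with PBS, by 0.35 on the log2 scale (SE 0.09, adjusted p = 0.00601). Ccn4 had 16709, 16755 and 13867 normalized counts with PBS and 23112, 21875 and 23407 with rmTGF-β1, a rise of 0.54 (SE 0.07, adjusted p = 2.09e-05) with no overlap between groups. Ccn5 was lower with rmTGF-β1 in these libraries: 8938, 8833 and 8038 with PBS against 7068, 7528 and 5132. Its groups did not overlap, and the log2 difference of -0.38 (SE 0.14) had an adjusted p of 0.0702. This call was lost when any of 3 libraries was left out: the first or second with PBS (adjusted p = 0.168 and 0.161) or the third with rmTGF-β1, which gave -0.23 with an adjusted p of 0.344. Here 3 of 5 members were called, against 23.9% of all genes. The genotypes were then set against each other: the difference in response to rmTGF-β1 was called for no member and for 0.0861% of all genes, 0.0369% upward (14 genes by edgeR, 163 by DESeq2), and no member had an unadjusted p under 0.05. The difference for Ccn2 was -0.01 (95% interval -0.262 to 0.237), that for Ccn4 -0.08 (-0.294 to 0.135) and that for Ccn5 -0.32 (-0.739 to 0.101, adjusted p = 0.627).

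In WT cells rmCIRP lowered most of the members tested. Of the 5 members tested, 4 fell and none rose, in a comparison in which 43.9% of all genes were called, 19.8% higher and 24.1% lower. Ccn5 fell most. It had 7708, 8869 and 8672 normalized counts with PBS and 2986, 2828 and 2596 with rmCIRP. The highest library with rmCIRP was far below the lowest with PBS. The log2 difference was -1.59 (SE 0.15), or 3.01-fold lower, with an adjusted p of 1.59e-08, and it remained called under every alternative tried, between -1.64 and -1.52. By count Ccn5 went from rank 657 to rank 2573 of all genes.

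The falls of Ccn1, Ccn2 and Ccn4 were much smaller. Ccn1 went from 39196, 40198 and 40333 normalized counts with PBS to 33658, 32905 and 29822 with rmCIRP, a log2 difference of -0.32 (SE 0.09, adjusted p = 0.00768). Ccn2 went from 84694, 80435 and 84608 to 72484, 71317 and 61648, a difference of -0.29 (SE 0.09, adjusted p = 0.0104). In neither gene did the groups overlap, and the third library with rmCIRP was the lowest in both. Ccn4 went from 13880, 15506 and 14258 to 13148, 12493 and 12087, without overlap, by -0.22 (SE 0.07, adjusted p = 0.024). Its call was lost without the second library with PBS (adjusted p = 0.14) or without the third with rmCIRP (adjusted p = 0.122). Ccn3, which is linked to growth restraint and differentiation, was counted at 338, 559 and 436 with PBS and at 465, 450 and 416 with rmCIRP. The groups overlapped, and the log2 difference was -0.01 (95% interval -0.309 to 0.294), with a sign that turned without the filter on low counts, with the stricter filter and with the compared libraries alone.

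Fibroblast markers moved in the same comparison. The summed level of the 8 markers was 499896 to 541736 with PBS and 399219 to 438006 with rmCIRP in WT cells. Of the 8, 5 were lower and 2 higher, with a median log2 difference of -0.30: Thy1, a surface glycoprotein, fell by 0.40, Col1a2 fell by 0.38 and Col1a1 fell by 0.37, the latter both chains of type I collagen, whereas Dcn, the proteoglycan decorin, rose by 0.34. Set against the geometric mean of these markers within each library, Ccn5 was still lower by 1.47 on the log2 scale with no overlap (means -1.13 with PBS and -2.6 with rmCIRP, exact permutation p = 0.1, two-sided, the smallest possible). Relative to the same markers Ccn1 differed by -0.20, Ccn2 by -0.17 and Ccn4 by -0.10, each with overlapping libraries and an exact permutation p of 0.2. Smooth muscle and pericyte markers were also lower with rmCIRP, 4 of 5, with sums of 54851 to 60088 against 83234 to 88953. Of the macrophage markers 5 were higher and 6 lower, with sums of 77143 to 82072 against 86108 to 93659. Lyz2 made up most of these sums, with means of 62460 with rmCIRP and 78180 with PBS. Fcgr1 rose by 2.26, Cd14 by 1.70 and Adgre1 by 0.98 on the log2 scale, while Mertk fell by 0.66, Csf1r by 0.52 and Tyrobp by 0.39.

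**Figure D2:**
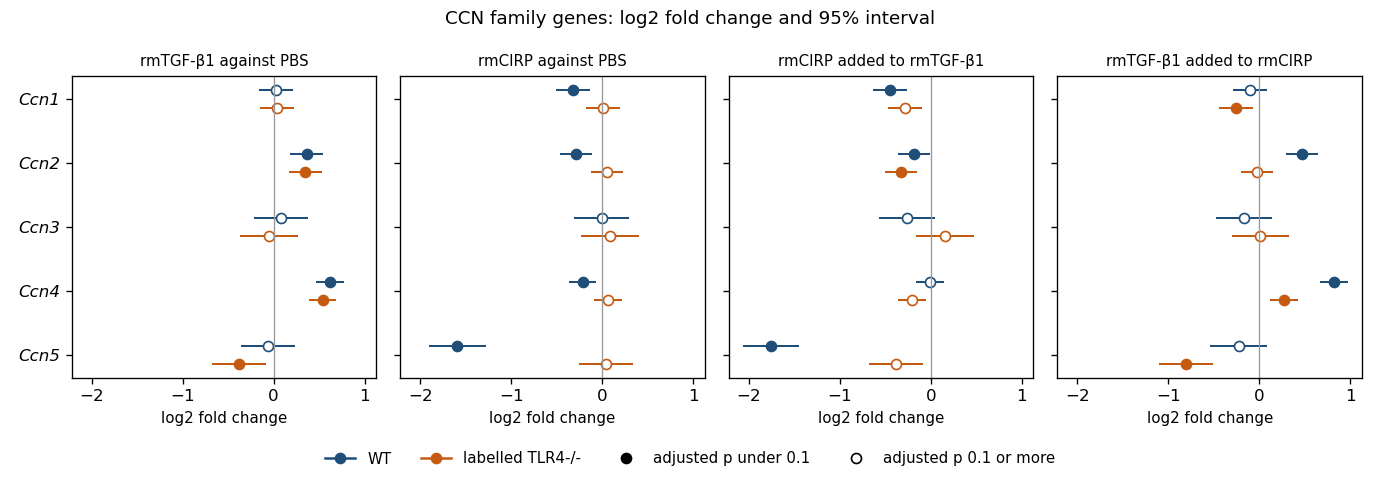
Log2 fold change of 5 CCN genes (y axis) in 4 comparisons (panels) for WT and labelled TLR4-/- libraries. Points are estimates of the quasi-likelihood model, lines are 95% intervals, and filled points have an adjusted p under 0.1. For rmCIRP against PBS, Ccn5 stands at -1.59 in WT cells and at 0.04 in libraries labelled TLR4-/-.

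Libraries labelled TLR4-/- showed no call for any member with rmCIRP, nor was any of the 16258 genes (0% called by edgeR). At an unadjusted p under 0.05 there were 1136 genes, or 6.99%, and DESeq2 called 33. Ccn5 had 8938, 8833 and 8038 normalized counts with PBS and 8209, 8833 and 9421 with rmCIRP. The groups overlapped, with a log2 difference of 0.04 and a 95% interval of -0.255 to 0.338. Ccn1 differed by 0.01 (-0.178 to 0.196), Ccn2 by 0.05 (-0.123 to 0.230), Ccn3 by 0.09 (-0.229 to 0.407) and Ccn4 by 0.06 (-0.087 to 0.216). For Ccn5, Ccn1, Ccn2 and Ccn4 the interval did not reach the gene's own estimate in WT cells (-1.59, -0.32, -0.29 and -0.22). For Ccn3 no fall was called in WT cells either (-0.01).

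Whether the genotypes responded differently to rmCIRP was tested with a contrast of the model, the change in libraries labelled TLR4-/- minus that in WT, both on the log2 scale. It was called for 4 of 5 members, all upward, against 31.4% of all genes called and 17.1% called upward. For Ccn5 it was 1.63 (SE 0.21, adjusted p = 3.27e-06), and it remained called under each alternative. For Ccn2 it was 0.34 (SE 0.12, adjusted p = 0.0422), for Ccn1 0.33 (SE 0.13, adjusted p = 0.0654) and for Ccn4 0.28 (SE 0.10, adjusted p = 0.052). These latter 3 calls rested on single libraries. Without the third WT library with rmCIRP all 3 were lost (adjusted p of 0.158, 0.193 and 0.152), and the number of members called fell to 1. It fell to 2 without the first or the second WT library with PBS, without the first labelled TLR4-/- with PBS, or without the second labelled TLR4-/- with rmCIRP. Over the fits that each left out 1 library of these groups, 25.7% to 29.9% of all genes were called. The macrophage and epithelial marker sums given above differ between the genotypes in each treatment, and the smooth muscle and pericyte sums differ with PBS. Endothelial sums were lower in libraries labelled TLR4-/- with PBS (285 to 367 against 576 to 850) and with rmCIRP (246 to 296 against 619 to 766). Mesothelial sums were higher in them with PBS (562 to 689 against 458 to 506) and with rmCIRP (586 to 648 against 393 to 440). The part of these cell type markers in the difference was not tested.

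Adding rmCIRP to rmTGF-β1 in WT cells lowered 3 members and raised none, where 42.2% of all genes were called, 21.7% as lower. Ccn5 had 7862, 8124 and 8257 normalized counts with rmTGF-β1 alone and 2608, 2290 and 2294 with both. The groups were far apart, with a log2 difference of -1.76 (SE 0.15, adjusted p = 4.34e-09), or 3.38-fold lower. Ccn1 went from 40977, 41448 and 40070 to 29683, 30847 and 29625, a difference of -0.45 (SE 0.09, adjusted p = 0.000485), also without overlap. Ccn2 was just past the threshold: 107002, 109033 and 105954 normalized counts with rmTGF-β1 and 91743, 99041 and 93646 with both, a difference of -0.18 (SE 0.09, adjusted p = 0.0998). Although its groups did not overlap, that call was lost with DESeq2 (adjusted p = 0.113), with RLE scaling (adjusted p = 0.111), with a mean count of at least 10 as the filter (adjusted p = 0.133), and without any 1 of 5 libraries (adjusted p up to 0.244 without the first library with both). Ccn4 did not follow. It had 22665, 22972 and 21508 normalized counts with rmTGF-β1 and 21717, 22826 and 22449 with both, and the overlapping groups differed by -0.01 (95% interval -0.159 to 0.143). Ccn3 had 509, 458 and 450 normalized counts with rmTGF-β1 and 397, 380 and 408 with both. Although these did not overlap, the difference of -0.26 did not pass the test (adjusted p = 0.176).

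Seen the other way, rmTGF-β1 added to rmCIRP raised Ccn2 and Ccn4 in WT cells, 2 of 5 members against 20.5% of all genes. Ccn4 went from 13148, 12493 and 12087 normalized counts to 21717, 22826 and 22449, a rise of 0.82 (SE 0.07, adjusted p = 6.92e-08). Ccn2 went from 72484, 71317 and 61648 to 91743, 99041 and 93646, a rise of 0.47 (SE 0.09, adjusted p = 0.000511). In both genes every library with the pair of factors lay above every library with rmCIRP alone. Ccn5 stayed low, at 2986, 2828 and 2596 with rmCIRP and 2608, 2290 and 2294 with both (-0.23, SE 0.15, adjusted p = 0.352). Whether the factors acted on a gene other than additively on the log2 scale was tested by their interaction, which was called for no member and for 0.0492% of all genes, 0.0369% upward and 0.0123% downward (8 genes by edgeR, 37 by DESeq2), with no member at an unadjusted p under 0.05. It was 0.21 for Ccn4 (95% interval -0.007 to 0.422, unadjusted p = 0.0571, adjusted p = 0.89) and -0.17 for Ccn5 (-0.595 to 0.264). These comparisons share libraries with those against PBS.

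In libraries labelled TLR4-/-, rmCIRP added to rmTGF-β1 gave 1 call of 5, Ccn2, against 2.69% of all genes (437 genes), 1.56% higher and 1.13% lower. Without the library that stands apart, 1 gene of 16512 was called, or 0.00606%. Ccn2 had 104191, 101849 and 97728 normalized counts with rmTGF-β1 and 91432, 88551 and 63691 with both. The last value, far below its replicates, belongs to the library that stands apart. With it the log2 difference was -0.32 (SE 0.09, adjusted p = 0.0814), and without it -0.17 (adjusted p = 0.312), so that no member was called. With the compared libraries alone the call was also lost (adjusted p = 0.679). Ccn1 showed the same single low value, 35287, 32736 and 23980 with both factors against 39053, 39525 and 32913 with rmTGF-β1 (-0.28, adjusted p = 0.119). Ccn5 was at 6270, 5469 and 3423 with both against 7068, 7528 and 5132, overlapping (-0.38, adjusted p = 0.173). Ccn4, at 21153, 21472 and 16981 against 23112, 21875 and 23407, differed by -0.20 (adjusted p = 0.154). In Ccn1, Ccn2 and Ccn5 the third library of each condition was the lowest. The number of members called in this comparison ran from 0 to 4 as 1 library at a time was left out. It was 0 without the first or the second library with rmTGF-β1, where 0% and 0.478% of all genes were called. It was 3 without the third (13% of all genes), 4 without the first library with both (16.2%) and 3 without the second (4.46%).

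rmTGF-β1 added to rmCIRP in libraries labelled TLR4-/- lowered Ccn5 and Ccn1 and raised Ccn4, 3 of 5 members against 32.8% of all genes, 17.2% higher and 15.6% lower. Ccn5 went from 8209, 8833 and 9421 normalized counts with rmCIRP to 6270, 5469 and 3423 with both, without overlap. The log2 difference was -0.81 (SE 0.14, adjusted p = 0.000372), and without the library that stands apart it was -0.59 and still called (adjusted p = 0.000455). Ccn4 went from 15780, 16692 and 16826 to 21153, 21472 and 16981, a rise of 0.27 (SE 0.07, adjusted p = 0.00946) and of 0.37 without that library. Ccn1 went from 37021, 37257 and 35311 to 35287, 32736 and 23980, by -0.26 (SE 0.09, adjusted p = 0.0394), and the groups came close without overlapping. Its call was lost without that library (-0.11, adjusted p = 0.257), without the first or second library with rmCIRP (adjusted p = 0.106 and 0.123), and with the compared libraries alone (adjusted p = 0.238). Without the library that stands apart, 23% of all genes were called.

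With PBS, the genotypes differed in 1 of 5 members, Ccn3, in a comparison in which 47.1% of all genes were called, 23.2% as higher in libraries labelled TLR4-/-. Genotype and pool of cells cannot be told apart in it. Ccn3 had 338, 559 and 436 normalized counts in WT libraries and 351, 358 and 246 in those labelled TLR4-/-. The groups overlapped, and the log2 difference was -0.48 (SE 0.15, adjusted p = 0.0127). It was lost without the second WT library (-0.27, adjusted p = 0.17) or the third labelled TLR4-/- (-0.31, adjusted p = 0.122). Across all treatments the 12 WT libraries had 338 to 559 Ccn3 counts and the 12 labelled TLR4-/- 246 to 399. Ccn1 differed by -0.13 (95% interval -0.321 to 0.053), Ccn2 by -0.06 (-0.241 to 0.112), Ccn4 by 0.11 (-0.038 to 0.266) and Ccn5 by 0.03 (-0.268 to 0.325). Of the 8 fibroblast markers 1 was higher and 3 were lower in the libraries labelled TLR4-/-, with a median log2 difference of -0.11. Dcn was higher by 0.25 (adjusted p = 0.00191), while Pdgfra differed by -1.19 (adjusted p = 1.52e-08), Thy1 by -1.16 (adjusted p = 5.34e-16) and Pdgfrb by -0.31 (adjusted p = 5.95e-06), and the other 4 were not called. Set against the geometric mean of these markers within each library, Ccn4 was higher by 0.40 and Ccn5 by 0.32 in libraries labelled TLR4-/-. Neither overlapped, and the exact permutation p was 0.1 for both, the smallest possible. On this scale Ccn3 differed by -0.19, Ccn1 by 0.15 and Ccn2 by 0.23. These overlapped, with an exact permutation p of 0.5, 0.3 and 0.2.

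Ccn6 was not detectable beyond a few reads. It had 19 reads in all, in 12 of the 24 libraries, with at most 3 in any. A count of 0 allows up to 3 reads, or 0.0756 to 0.1 CPM of the counted reads, which covers counting error only. Each library was at or under this limit, so no fold change is given.

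The make-up of the family moved with the factors. On the scale of counts per kilobase, Ccn5 made 7.81% ± 0.56 (SD, n = 3) of the family in WT cells with PBS. It made 3.33% ± 0.065 under rmCIRP, 6.35% ± 0.21 under rmTGF-β1 and 2.34% ± 0.23 under the pair. Ccn2 made 52.0% ± 1.3 with PBS and 62.0% ± 0.55 with both. Among libraries labelled TLR4-/-, the share of Ccn5 was 8.39% ± 0.66 with PBS, 8.40% ± 0.67 under rmCIRP, 5.54% ± 0.80 under rmTGF-β1 and 5.19% ± 0.61 under the pair. Its place beside Ccn4 changed too, on this scale. By count, without division by exon length, Ccn4 was above Ccn5 in every library. Per kilobase, Ccn5 was above Ccn4 in every WT library with PBS (4006 to 4609 against 2494 to 2786) and below it in each with rmCIRP (1349 to 1552 against 2172 to 2363). With rmTGF-β1 alone these neighbours overlapped in WT cells (4086 to 4291 against 3865 to 4128), and with both factors Ccn5 was lower (1190 to 1356 against 3902 to 4102). Among libraries labelled TLR4-/-, Ccn5 was above Ccn4 with PBS (4178 to 4645 against 2492 to 3011) and with rmCIRP (4267 to 4896 against 2836 to 3024). There, the order was turned with rmTGF-β1 (2667 to 3913 against 3931 to 4206), and the ranges overlapped with both factors (1779 to 3259 against 3051 to 3858).

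**Figure D3:**
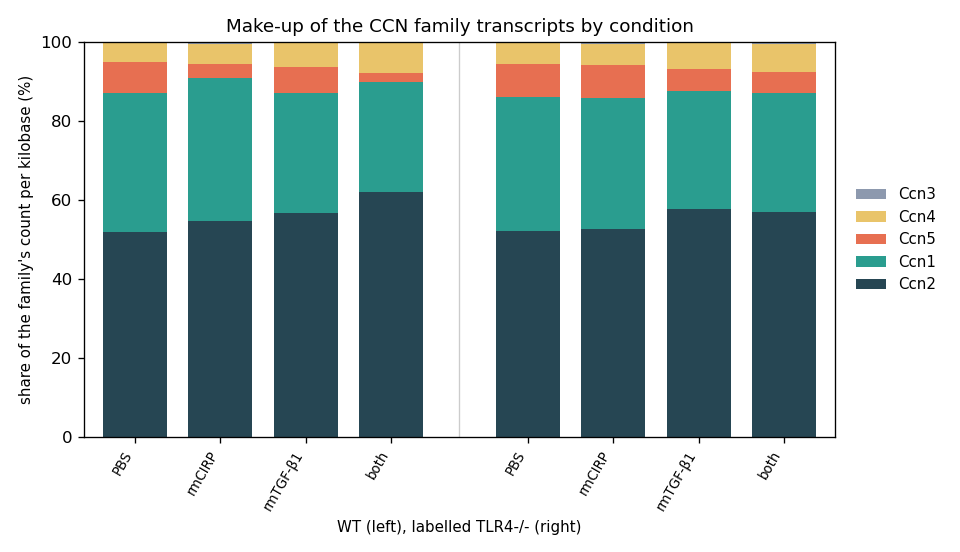
Share of each CCN gene in the family's normalized counts per kilobase of exon (y axis, percent, bars from 0 to 100) in the 8 conditions (x axis), as the mean of 3 libraries. Ccn5 takes 7.81% in WT cells with PBS and 2.34% with both factors, and Ccn3, at most 0.354%, is barely visible.

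Ratios within a library do not depend on its depth or scaling. The ratio of Ccn2 to Ccn5 counts in WT cells was 9.91 with PBS (range 9.07 to 11), 24.4 with rmCIRP (23.7 to 25.2), 13.3 with rmTGF-β1 (12.8 to 13.6) and 39.6 with both (35.2 to 43.3). No ranges overlapped, so the factors raised it both alone and together. For Ccn4 to Ccn5 the ratio was 1.73 with PBS (1.64 to 1.80), 4.49 with rmCIRP (4.4 to 4.66), 2.77 with rmTGF-β1 (2.60 to 2.88) and 9.33 with both (8.33 to 9.97). In libraries labelled TLR4-/- the ratio of Ccn2 to Ccn5 was 9.28 with PBS (8.49 to 10.2) and 9.37 under rmCIRP (8.56 to 10.2). It was 15.6 under rmTGF-β1 (13.5 to 19) and 16.4 under the pair (14.6 to 18.6), and the ranges with and without rmTGF-β1 did not overlap, while those with and without rmCIRP did. The exact permutation test gave p = 0.1 for each contrast with rmCIRP in WT cells, two-sided, the smallest that 3 against 3 libraries allows.

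**Figure D4:**
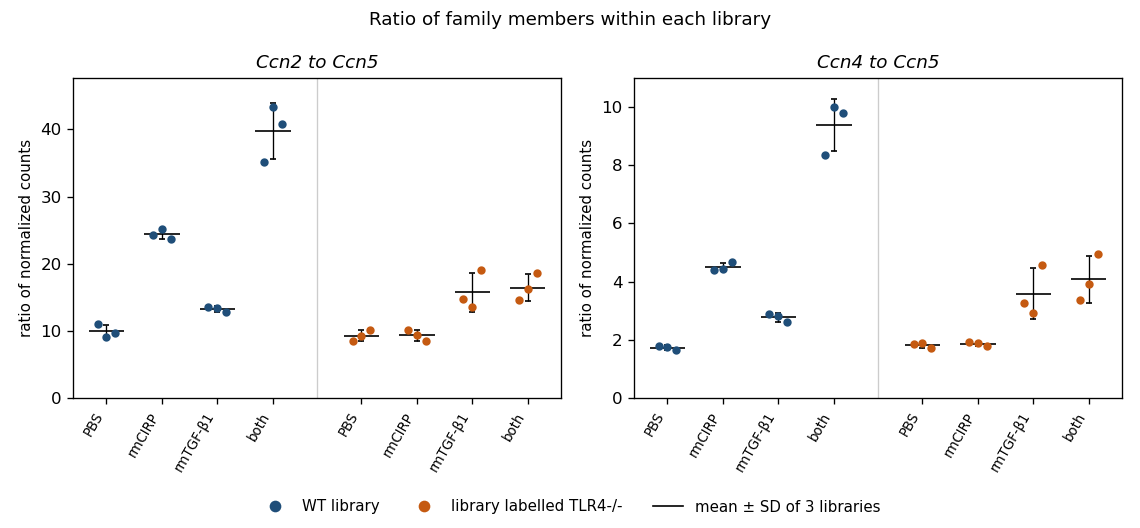
Ratio of normalized counts of Ccn2 to Ccn5 (left) and Ccn4 to Ccn5 (right) in each of the 24 libraries (y axis, linear from 0) by treatment (x axis). Points are libraries and bars the mean ± SD of 3. In WT cells with both factors the ratio of Ccn2 to Ccn5 lies between 35.2 and 43.3, above each other library.

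The pathways known to control CCN genes were described by lists of other genes. In WT cells their counts stand beside 12.4% of all genes called with rmTGF-β1 and 43.9% with rmCIRP. There, 42.2% were called for rmCIRP added to rmTGF-β1 and 20.5% for rmTGF-β1 added to rmCIRP. In libraries labelled TLR4-/- 23.9% were called with rmTGF-β1 and 0% with rmCIRP. TGF-β and SMAD targets rose with rmTGF-β1: 10 of 14 were higher and 1 lower in WT cells, with a median log2 difference of 0.22 against -0.02 over all genes, and 11 higher and 3 lower in libraries labelled TLR4-/- (median 0.25). Among them Pmepa1, which curbs TGF-β signaling, rose by 0.47 in WT cells (adjusted p = 1.06e-06), and Tgfb1 itself by 0.51 (adjusted p = 2e-04). Id2, an inhibitor of differentiation, fell by 0.23 (adjusted p = 0.0066). With rmCIRP in WT cells this list was split, 5 higher and 4 lower. Junb, an AP-1 subunit, rose by 0.65 (adjusted p = 4.88e-07), and Tgfbi, a matrix protein, fell by 0.90 (adjusted p = 4.44e-05).

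SRF and MRTF targets, many of them genes of the actin cytoskeleton, went down with rmCIRP in WT cells, where 12 of 15 were lower and none higher. Their median log2 difference was -0.28 against -0.02 over all genes. The list also holds Mrtfb, the gene of an MRTF cofactor. Cnn1, calponin, fell by 0.71 (adjusted p = 0.000146), Vcl, the focal adhesion protein vinculin, fell by 0.63 (adjusted p = 3.2e-06) and Fos fell by 0.72 (adjusted p = 3.92e-05). When rmCIRP was added to rmTGF-β1, 11 of 15 were lower and none higher (median -0.40). In libraries labelled TLR4-/- none of the 15 was called with rmCIRP, and the genotype difference was called for 10 of 15, all upward. For that difference 31.4% of all genes were called, 17.1% upward. When rmCIRP was added to rmTGF-β1 in libraries labelled TLR4-/-, 3 of 15 were lower (median -0.18), Acta2, Tpm1 and Tpm2. In that comparison 2.69% of all genes were called, 1.13% as lower. Without the library that stands apart none of the 15 was called (median -0.08). When rmTGF-β1 was added to rmCIRP in libraries labelled TLR4-/-, 10 of 15 were lower and none higher (median -0.36). There, 32.8% of all genes were called, 15.6% as lower. Without the library that stands apart, 9 were lower and 1 higher (median -0.18), where 23% of all genes were called. With rmTGF-β1 against PBS in libraries labelled TLR4-/-, 3 of 15 were lower, where 23.9% of all genes were called, 11.7% as lower. With PBS, 9 of 15 were lower and 2 higher in libraries labelled TLR4-/- than in WT (median -0.25), where 47.1% of all genes were called, 24% as lower. The smooth muscle marker list, which shares Cnn1 with this list, had 4 of 5 lower with rmCIRP in WT cells.

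YAP and TAZ targets other than Ccn1 and Ccn2 were mixed. With rmCIRP in WT cells 4 of 20 were higher and 10 lower (median -0.17), among them Ankrd1, a stress-responsive nuclear cofactor, which fell by 0.87 (adjusted p = 1.86e-05), and Nt5e, the ectonucleotidase CD73, which fell by 0.84 (adjusted p = 7.67e-06). Gadd45a, a growth arrest gene, rose by 0.72 (adjusted p = 5.46e-06). With rmTGF-β1 in WT cells 2 rose and 3 fell. The Hippo pathway's own genes were likewise split with rmCIRP, 4 of 16 higher and 6 lower. Tead3, a TEAD factor, fell by 0.76 (adjusted p = 6.16e-06) and the kinase gene Lats2 fell by 0.45 (adjusted p = 9.8e-05), while Stk4, a kinase upstream of Lats2, rose by 0.17 (adjusted p = 0.000349). Lats2 is in both of these lists.

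Of the 11 Wnt and β-catenin targets 9 could be tested. In WT cells 3 of 9 were called with rmTGF-β1 (all lower, median -0.28), against 12.4% of all genes called and 6.65% called lower. With rmCIRP 4 of 9 were called (all lower), against 43.9% of all genes called and 24.1% called lower. When rmCIRP was added to rmTGF-β1, 2 were higher and 3 lower, and when rmTGF-β1 was added to rmCIRP, 1 was higher and 2 were lower. Znrf3, a ubiquitin ligase that removes Wnt receptors, rose by 0.41 (adjusted p = 0.000307) and by 0.54 (adjusted p = 4.75e-05) in these comparisons. Nkd1, a feedback inhibitor of Wnt signaling, fell by 0.93 with rmCIRP (adjusted p = 5.66e-06), and Apcdd1, another inhibitor, fell by 0.59 (adjusted p = 5.19e-05) with rmCIRP and fell by 0.42 (adjusted p = 0.00775) with rmTGF-β1.

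Of 20 genes for receptors and binding partners of CCN proteins 19 were tested. In WT cells rmCIRP raised 5 and lowered 10 (median -0.10). The integrin genes Itgb3, which rose by 1.13 (adjusted p = 0.000389), and Itgav, which rose by 0.40 (adjusted p = 7.55e-07), encode the αvβ3 receptor of Ccn1 and Ccn2. Notch1, a partner of Ccn3, rose by 0.53 (adjusted p = 0.00999). Itga6 fell by 0.39 (adjusted p = 3.64e-05) and Fgfr2 fell by 0.50 (adjusted p = 0.0102). With rmTGF-β1 in WT cells 4 rose and 3 fell: Tnfrsf11b, the decoy receptor osteoprotegerin, rose by 0.66 (adjusted p = 1.45e-05), Itga5, the fibronectin receptor chain, rose by 0.23 (adjusted p = 0.000441), and Sdc4, a heparan sulfate proteoglycan, fell by 0.29 (adjusted p = 0.00781). None of the 19 was called with rmCIRP in libraries labelled TLR4-/-. With PBS, 6 of the 19 were higher and 8 lower in those libraries than in WT, against 47.1% of all genes called. Itgam and Itgb2, the chains of the leukocyte integrin to which Ccn1 binds, were higher by 2.19 and 2.03 on the log2 scale (adjusted p = 3.95e-16 and 4.88e-16). The macrophage marker list also holds Itgam. Itga6 was higher by 2.08 (adjusted p = 7.05e-18). Fgfr2 differed by -0.85 (adjusted p = 8.76e-05), Tnfrsf11b by -0.31 (adjusted p = 0.00324) and Lrp6 by -0.23 (adjusted p = 0.00116).

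**Figure D5:**
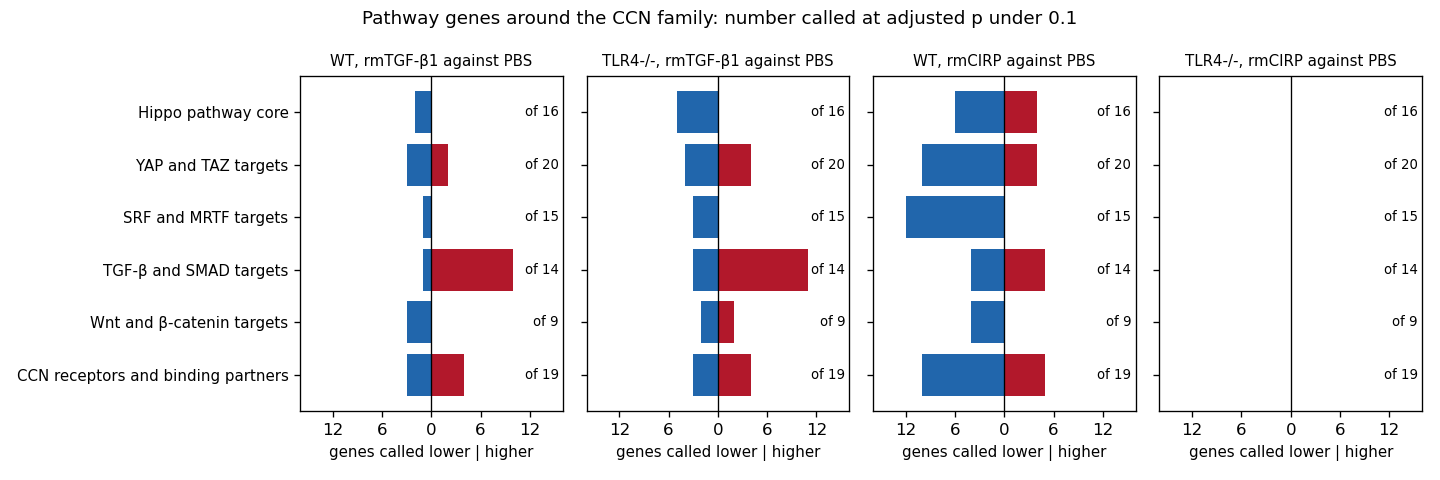
Number of genes called at an adjusted p under 0.1 in 6 lists of pathway genes (y axis) in 4 comparisons against PBS (panels), lower to the left of 0 and higher to the right (x axis, counts). The number at the right is how many of the list were tested. With rmCIRP, 12 of 15 SRF and MRTF targets are lower in WT cells and none of 15 is called in libraries labelled TLR4-/-.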

How the data were processed

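Reads of stranded total RNA libraries were aligned by the authors to mouse GENCODE with STAR2, and the deposited values are raw ht-seq read counts per gene symbol, 1 file per library. The submitters' processing notes name the build NCBIM37. The annotation release and strand setting are not given in the sources used here, so reads of overlapping antisense genes may not be separated. The 5 tally lines, which name no gene and held 14.5% to 16.1% of the reads in a file, were left out.

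Groups came from the labels. No replicate pair agreed within sampling noise (chi-square per degree of freedom 2.68 to 50.9 over 24 pairs). In R 4.3.3, edgeR 4.0.16 was used: filterByExpr left 16258 genes, TMM scaled the libraries, and 1 quasi-likelihood model with a mean per condition was fitted to all 24. There were 12 contrasts, adjusted by Benjamini-Hochberg over all genes tested, with a threshold of 0.1. A standard error is the log2 fold change over the square root of F. Normalized counts use DESeq2 1.42.0 size factors, and exon lengths come from GENCODE M21 by symbol. A length is the union of all annotated exons of a symbol, which may exceed that of the transcripts expressed. Ratio tests are exact permutation tests over libraries. Alternatives were DESeq2, RLE, total counts, no filter, a mean count of at least 10, a replicate block, the compared libraries alone, and each library left out. Leaving the third library labelled TLR4-/- with both factors out of every comparison was chosen after seeing the data.

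Members and lists were chosen with earlier results of these data known. Named list genes are, per direction, at most the 3 largest changes past the threshold, and not all are named.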

Additional observations from a re-analysis of the deposited data

Results flagged for a closer look

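The response to rmCIRP differed between genotypes in 4 members by the test of the difference itself, the log2 fold change in libraries labelled TLR4-/- minus that in WT: 1.63 for Ccn5, 0.34 for Ccn2, 0.33 for Ccn1 and 0.28 for Ccn4. The difference for Ccn5 was called under each alternative, between 1.56 and 1.69. Those for Ccn1, Ccn2 and Ccn4 lost their calls without single libraries, as given above. The share of all genes for which this difference was called was 31.4%.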

How the results depend on the processing

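The alternatives other than leaving out single libraries, the compared libraries alone among them, gave 420 values of single members. Of these, 391 kept direction and side of the threshold, 14 gained a call, 5 lost one and 10 changed sign. Of counts of called members, 76 of 84 stayed within 1.5 times. For rmCIRP added to rmTGF-β1 in libraries labelled TLR4-/- the count was 1, but 2 with DESeq2, 4 without the filter on low counts and 0 with the compared libraries alone. For the genotypes with PBS it was 1, but 3 without the filter and 2 with the compared libraries. It was 1 in place of 0 without the filter for the genotype difference with rmTGF-β1, and 4 in place of 2 with the compared libraries for rmTGF-β1 added to rmCIRP in WT cells. The causes were not tested.

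The replicate block gave 2 members in place of 1 for rmCIRP added to rmTGF-β1 in libraries labelled TLR4-/- (Ccn1, -0.29, adjusted p = 0.0717, was added), and changed no other member's call. Same-numbered libraries of different conditions deviated together by a mean correlation of 0.0219 (-0.29 to 0.559 over 84 pairs), and the labels name no shared batch, so the numbers were not taken as pairs.

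Small differences changed sign. The genotype difference of Ccn1 with rmTGF-β1 was -0.005 with DESeq2 and with RLE, -0.004 with total counts, -0.032 without the filter and -0.008 with a mean count of at least 10. Ccn3 with rmCIRP in WT cells was 0.005 without the filter, 0.011 with a mean count of at least 10 and 0.012 with the compared libraries, and Ccn4 with rmCIRP added to rmTGF-β1 was 0.011 with a mean count of at least 10. Ccn3 with rmTGF-β1 added to rmCIRP in libraries labelled TLR4-/- was -0.002 with total counts.

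With 1 library left out, the count of called members ran from 1 to 4 for the genotype difference with rmCIRP, from 0 to 4 for rmCIRP added to rmTGF-β1 in libraries labelled TLR4-/- and from 0 to 2 for the genotypes with PBS. Log2 values whose sign turned ran as follows in WT cells: Ccn3 with rmTGF-β1 from -0.065 to 0.296, Ccn3 with rmCIRP from -0.158 to 0.203, and Ccn4 with rmCIRP added to rmTGF-β1 from -0.037 to 0.015. In libraries labelled TLR4-/- with rmTGF-β1, Ccn1 ran from -0.011 to 0.115 and Ccn3 from -0.210 to 0.038. With rmCIRP there, Ccn1 ran from -0.033 to 0.037, Ccn3 from -0.074 to 0.180, Ccn4 from -0.027 to 0.109 and Ccn5 from -0.011 to 0.086. With rmTGF-β1 added to rmCIRP, Ccn3 ran from -0.088 to 0.146 and Ccn2 from -0.118 to 0.122. Ccn5 between genotypes with PBS ran from -0.012 to 0.092. The genotype difference with rmTGF-β1 ran from -0.048 to 0.090 for Ccn1, from -0.061 to 0.017 for Ccn2 and from -0.349 to 0.012 for Ccn3, and that with rmCIRP from -0.120 to 0.241 for Ccn3.

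Counts over all genes moved most where few were called. Genes called were 437 for rmCIRP added to rmTGF-β1 in libraries labelled TLR4-/-, but 902 with DESeq2, 1580 without the filter, 810 with the block and 0 with the compared libraries. For rmCIRP against PBS there, 149 were called without the filter, 29 with the compared libraries and 1 with the block, in place of 0. For the WT interaction the 8 became 37, 198 and 125 with DESeq2, without the filter and with the compared libraries. For the genotype difference with rmTGF-β1 the 14 became 163 and 563 with DESeq2 and without the filter, 23 with a mean count of at least 10 and 22 with the block. For rmTGF-β1 added to rmCIRP in libraries labelled TLR4-/- the 5329 became 2710 with the compared libraries. Without the third library labelled TLR4-/- with both factors, the 437 became 1, the 14 became 179, the 8 became 23 and the 0 became 14. With 1 of the compared libraries left out at a time, the 437 ran from 0 to 2674, the 14 from 0 to 119 and the 8 from 2 to 7. The 2019 genes called with rmTGF-β1 in WT cells fell to 1253 without the third library with PBS and to 1029 without the second with rmTGF-β1, and the 3884 called in libraries labelled TLR4-/- fell to 2517 without the third with rmTGF-β1. Scaling by total counts alone moved the split of higher to lower genes from 3212 and 3918 to 2637 and 4935 for rmCIRP in WT cells, from 938 and 1081 to 781 and 1400 for rmTGF-β1 in WT cells, from 1975 and 1909 to 1517 and 2481 for rmTGF-β1 in libraries labelled TLR4-/-, and from 254 and 183 to 425 and 149 for rmCIRP added to rmTGF-β1 there. It changed no direction of a called member.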

Other observations

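The genes whose pattern over the 24 libraries was most like that of each member were taken as the 3 with the highest Pearson correlation among 12306 candidates, as a description, since the libraries share conditions. For Ccn5 they were Loxl3, a lysyl oxidase that crosslinks collagen and elastin (r = 0.981), Speg (r = 0.980) and Wls, which carries Wnt proteins out of the cell (r = 0.974). With rmCIRP in WT cells Loxl3 fell by 0.81, Speg fell by 0.57 and Wls fell by 0.42, each less than Ccn5. For Ccn4 they were Col11a1, a fibrillar collagen gene (r = 0.965), Mcm6, a subunit of the replicative helicase (r = 0.960), and Cdh10 (r = 0.951), and Col11a1 rose by 0.64 with rmTGF-β1 in WT cells. For Ccn1 they were Cnn2 (r = 0.967), Bag2 (r = 0.966) and Siglecg (r = 0.964), for Ccn2 Tln2, a talin that links integrins to actin (r = 0.947), Plpp5 (r = 0.945) and Magi1 (r = 0.941), and for Ccn3 Pkd2 (r = 0.888), Atrnl1 and Sfrp1 (both r = 0.870). Cnn2 is also in the SRF and MRTF list.

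Among the members themselves, Ccn2 and Ccn4 (r = 0.827) and Ccn1 and Ccn5 (r = 0.788) varied most alike over the 24 libraries, while Ccn4 and Ccn5 did not vary together (r = 0.015). These values rest on 8 conditions and carry no test.

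Tnf, an inflammatory cytokine gene, had 234 to 291 normalized counts in WT libraries with PBS and 7474 to 8696 with rmCIRP. In those labelled TLR4-/- it had 967 to 1009 with PBS and 901 to 1018 with rmCIRP, where the groups overlapped.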
